A study of Homo sapiens with 6 samples.

Results

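The genes described here are 10 actin and actin-binding genes of the contractile apparatus, ACTB, ACTG1, ACTA2, TAGLN, TAGLN2, CNN2, CNN3, TPM1, TPM2 and MYL9. They were taken by symbol from a table of 58302 genes, in which each had 1 row of raw read counts, with no threshold on the values. The measurement was RNA sequencing in MDA-MB-231-DR, a line that resists doxorubicin and descends from MDA-MB-231, which is of the triple-negative type of breast cancer. It covered 3 libraries from control cells and 3 from cells treated with CYT, which is Cyperotundone, a compound of a medicinal sedge. According to the methods, the resistant lines were cultured in medium with a low concentration of doxorubicin, and both groups come from such a line. Whether the drug was present during the CYT treatment of these cells is not stated. The comparison of CYT with control was made in the study to look for targets of CYT in drug-resistant cells. The dose and duration of CYT for these libraries and the vehicle of the controls are not given in the sources used here. The groups represent 1 cell line. The statistical methods speak of independent experiments for the study's data in general, but neither they nor the labels say whether the 3 libraries of a group came from separate cultures, so the p-values below measure only the spread between these libraries, which may be technical.

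Actin filaments are built from monomers that every cell makes in large amounts. ACTB and ACTG1 encode the cytoplasmic beta and gamma actins, while ACTA2 encodes the smooth muscle alpha actin that is also made by myofibroblasts. Transgelins, calponins and tropomyosins bind along the filament, and myosin II, of which MYL9 is a regulatory light chain, pulls on it. Many genes of this apparatus are targets of the transcription factor SRF, which binds a DNA element named the CArG box. The SRF cofactors MRTFA and MRTFB bind free actin monomers and are held in the cytoplasm by them, and they enter the nucleus when monomers are used up by filament growth. The circuit is known for its part in cell spreading, migration and the myofibroblast state.

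Control libraries held 14050849 to 17770102 counts in all, and CYT libraries 13056270 to 14106017. CYT replicate 2 stood apart from the other CYT libraries, with a correlation of log2 CPM of 0.905 with replicate 1 and 0.904 with replicate 3, against 0.97 between these. Genes were tested with edgeR's quasi-likelihood test on counts scaled by the TMM method and called at a Benjamini-Hochberg adjusted p under 0.05, which called 12.9% of all genes lower after CYT. Markers of the mesenchymal state that is typical of MDA-MB-231 summed to 4484 to 4889 CPM (counts scaled to a common library size) in control and to 2290 to 2421 in CYT, and 3 of the 6, VIM, SPARC and AXL, were called lower, beside that 12.9%. The 6 luminal breast markers summed to 7.32 to 12.8 CPM and 5.96 to 14.3 CPM, with ESR1 and PGR at 10 counts or fewer in every library. The 7 smooth muscle markers summed to 1.70 to 4.46 CPM in control and 1.85 to 3.88 CPM in CYT, and CNN1, MYOCD and SYNPO2 had at most 10 counts in every library. DES, of the same list, had 15, 8 and 18 counts in control and 0 in every CYT library, too few to be tested. The 7 fibroblast markers summed to 19.6 to 36.1 CPM and 5.48 to 7.26 CPM. Among them DCN was at 0 in every library, and COL1A2, COL3A1 and LUM had at most 10 counts. COL1A1 and PDGFRB, the 2 that could be tested, were both called lower, beside the same 12.9%.

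The cytoplasmic actins and their partners CNN2 and TPM1 fell after CYT, while the smooth muscle actin ACTA2 and the transgelin TAGLN rose from a low level. All 10 genes were among the 15572 that passed the filter on low counts and were tested. Of them 4 were called lower (ACTB, ACTG1, CNN2 and TPM1), against 12.9% of all genes tested, and 2 were called higher (ACTA2 and TAGLN), against 15.7% of all genes tested. TAGLN2, CNN3, TPM2 and MYL9 were not called. The lower calls numbered 2, ACTB and ACTG1, without control replicate 1, control replicate 3, CYT replicate 1 or CYT replicate 3, and 4 without either of the other libraries, and the higher calls stayed at 2. Of all genes, 7.41% were called lower without control replicate 1, 7.63% without CYT replicate 3 and 17.0% without CYT replicate 2. The shares called higher in those fits were 10.9%, 12.2% and 18.6%. The 6 called genes also had an absolute log2 fold change over 1, the size used in the study for differentially expressed genes, which 12.2% of all genes met in the lower direction and 15.2% in the higher. In the same 6 genes the 3 control and 3 CYT libraries did not overlap in CPM, as was so for 46.1% of all genes. The median log2 fold change of the 10 genes was -0.38, with 6 negative, beside 0.0064 for all genes tested. In bulk RNA, fewer cells with a transcript and less of it in each cell cannot be told apart.

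**Figure D1:**
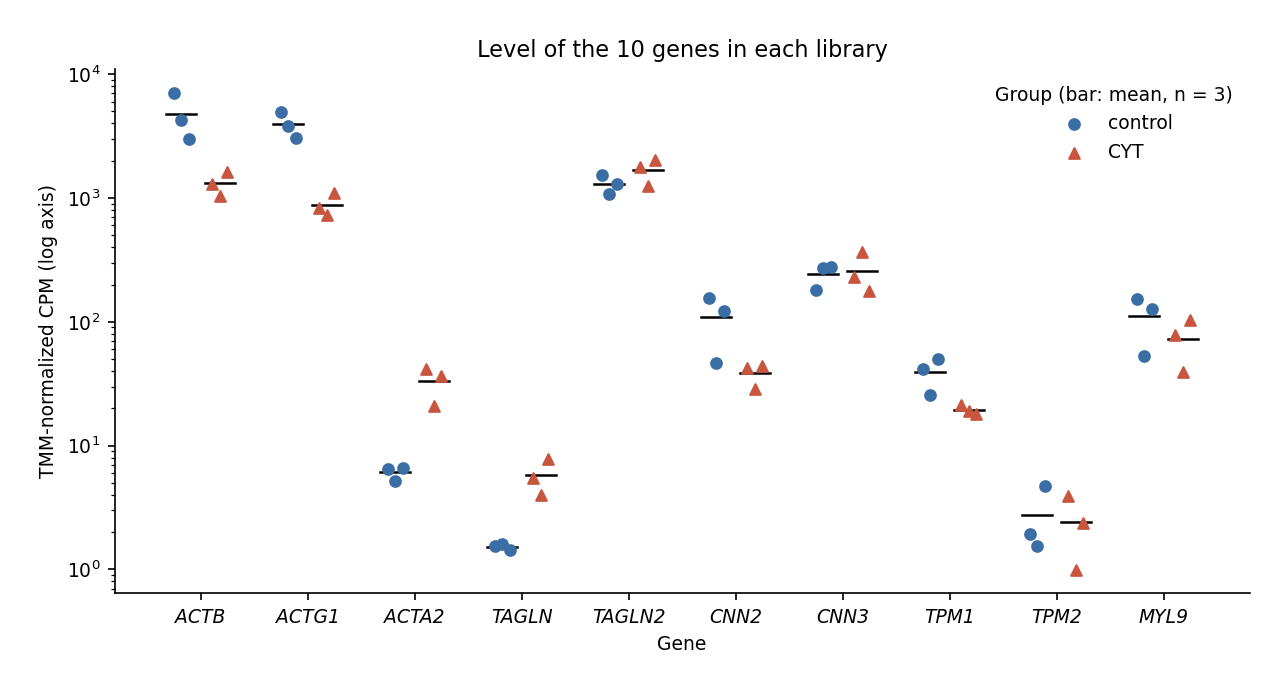
TMM-normalized CPM (log axis) of the 10 genes in each library, with control libraries as circles, CYT libraries as triangles and the mean of each group as a bar (n = 3). The CYT libraries lie below all control libraries for ACTB, ACTG1, CNN2 and TPM1, and above them for ACTA2 and TAGLN, while the groups overlap for TAGLN2, CNN3, TPM2 and MYL9.

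The beta actin gene ACTB (ENSG00000075624, chr7:5527151-5563784 of GRCh38, minus strand) is the most used actin of non-muscle cells. It had 114065, 79958 and 41961 counts in control replicates 1 to 3 and 18297, 14571 and 20520 counts in CYT replicates 1 to 3. Every CYT library lay below every control library, and the controls spanned a wider range than the CYT libraries. The mean was 4782 ± 2078 CPM in control and 1319 ± 298 CPM in CYT (SD, n = 3 each). The fitted fall was 3.62-fold, a log2 fold change of -1.86 with a standard error of 0.36 and an adjusted p of 0.00523 in edgeR. The deposited FPKM was 530.4 ± 203.7 in control and 148.7 ± 23.4 in CYT. ACTB stayed called lower in all 15 alternative analyses, with log2 fold changes from -2.13 to -1.48.

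The gamma actin gene ACTG1 (ENSG00000184009, chr17:81509971-81523847, minus strand) encodes a protein nearly identical to beta actin. It had 80117, 71877 and 42643 counts in control and 11843, 10278 and 13724 counts in CYT. The CYT values were again close to each other and lay below every control value. The mean was 3953 ± 957 CPM in control and 886 ± 185 CPM in CYT, a fall of 4.46-fold. The log2 fold change was -2.16 with a standard error of 0.30 and an adjusted p of 0.00146, and it ran from -2.34 to -1.98 over the 15 alternatives, each of which called it lower.

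The alpha smooth muscle actin gene ACTA2 (ENSG00000107796, chr10:88935074-88991339, minus strand), the classical marker of myofibroblasts, moved the opposite way. It had 105, 98 and 92 counts in control and 591, 294 and 456 counts in CYT, so that the lowest CYT library lay well above the highest control. The mean rose from 6.11 ± 0.78 CPM to 32.95 ± 10.8 CPM, or 5.39-fold. The log2 fold change was 2.43 with a standard error of 0.36 and an adjusted p of 0.00177, and all 15 alternatives called it higher, with values from 1.87 to 2.67. The 7 smooth muscle markers given above, which leave out ACTA2 and TAGLN, summed to under 5 CPM in every library. ACTA2 shares 380 exonic bases with FAS, a death receptor gene on the opposite strand, which had 133, 188 and 41 counts in control and 69, 232 and 134 in CYT. FAS overlapped between the groups, and its own log2 fold change was 0.59 with an adjusted p of 0.446 in edgeR. The antisense gene ACTA2-AS1 shares 516 exonic bases with ACTA2 and had from 1 to 23 counts. It is not known from the sources used here whether reads were counted by strand, so reads in the shared exons cannot be assigned to one gene with certainty.

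Counts of the actins were set against all counts of a library. ACTB and ACTG1 together took 1.12%, 0.854% and 0.602% of all counts in the control libraries and 0.214%, 0.190% and 0.255% in the CYT libraries. The 10 genes together took 1.31%, 1.01% and 0.789% in control and 0.436%, 0.377% and 0.483% in CYT. Within the sum of the 3 actins, ACTA2 made up 0.0540%, 0.0645% and 0.109% of the counts in control and 1.92%, 1.17% and 1.31% in CYT. ACTA2 was thus a larger share of actin counts in every CYT library and a minor share in all of them.

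Reads from related actins can be assigned to the wrong gene where the coding sequences are identical. The coding sequences of ACTB and ACTG1 were 91.3% identical, with a longest identical run of 59 bases, and 10 of 1076 windows of 50 bases were the same in both. ACTA2 was 81.8% identical to ACTB and 81.9% identical to ACTG1, and it shared no window of 50 bases with either. Processed pseudogenes named for ACTB, of which the table lists 10, reached at most 0.453% of the ACTB count in any library, and the 20 of ACTG1 reached at most 0.195%. Adding pseudogene counts to their parent genes left the call of each of the 10 genes as it was.

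TAGLN (ENSG00000149591, chr11:117199321-117204782, plus strand) encodes transgelin, also named SM22, an early marker of smooth muscle. It had 25, 30 and 20 counts in control and 78, 56 and 98 counts in CYT. The groups did not overlap, and counts were low throughout. The mean rose from 1.53 ± 0.082 CPM to 5.76 ± 1.91 CPM, a log2 fold change of 1.91 with a standard error of 0.41 and an adjusted p of 0.0085 (edgeR), or 3.75-fold. TAGLN was called higher in all 14 alternatives in which it was tested, with values from 0.48, on the compressed scale of log2(FPKM + 1), to 2.10. TAGLN shares 446 exonic bases with PCSK7, a protease gene on the opposite strand with more counts, 466, 291 and 362 in control and 536, 416 and 463 in CYT. The log2 fold change of PCSK7 was 0.57 with an adjusted p of 0.223, and the part of its reads in the TAGLN counts was not tested.

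TAGLN2 (ENSG00000158710, chr1:159918107-159925732, minus strand) is the transgelin of non-muscle cells. It had 24962, 20166 and 18057 counts in control and 25353, 17637 and 25687 counts in CYT, and the groups overlapped. The mean was 1307 ± 237 CPM in control and 1695 ± 401 CPM in CYT, a log2 fold change of 0.38 with a standard error of 0.29 and an adjusted p of 0.363. In CPM each CYT library lay above the control of the same number. With replicate number as a block the adjusted p was 0.291 (edgeR). After CYT, TAGLN2 had a higher level per kilobase of exon than either cytoplasmic actin.

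CNN2 (ENSG00000064666, chr19:1026581-1039068, plus strand) encodes calponin 2, a filament-binding protein of non-muscle cells. It had 2521, 880 and 1713 counts in control and 600, 406 and 548 counts in CYT. In CPM the lowest control, replicate 2 at 46.9, lay just above the highest CYT library at 43.5. The mean fell from 109 ± 56 CPM to 38.3 ± 8.1 CPM, a log2 fold change of -1.51 with a standard error of 0.44 and an adjusted p of 0.0294 (edgeR), or 2.84-fold. The call was lost without control replicate 1, control replicate 3, CYT replicate 1 or CYT replicate 3, with adjusted p from 0.0672 to 0.111.

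CNN3 (ENSG00000117519, chr1:94896949-94927278, minus strand), the acidic calponin, had 2906, 5110 and 3821 counts in control and 3234, 5175 and 2213 counts in CYT. The groups overlapped. The means were 242 ± 54 CPM and 257 ± 100 CPM, and the log2 fold change was 0.087 with a standard error of 0.35 and an adjusted p of 0.875.

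TPM1 (ENSG00000140416, chr15:63042632-63071915, plus strand) encodes alpha-tropomyosin, which stabilizes filaments. It had 674, 481 and 699 counts in control and 303, 265 and 226 counts in CYT, and in CPM the control values of 41.8, 25.6 and 50.3 all lay above the CYT values of 21.4, 18.9 and 17.96. The fall was 2.02-fold, a log2 fold change of -1.01 with a standard error of 0.33 and an adjusted p of 0.0449 in edgeR. Of the 6 called genes it lost its call most often. This happened without control replicate 1, control replicate 3, CYT replicate 1 or CYT replicate 3 (adjusted p from 0.0931 to 0.171) and in 5 other settings (0.0533 to 0.0915). TPM1-AS, an antisense gene that shares 2070 exonic bases with TPM1, had from 2 to 15 counts.

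TPM2 (ENSG00000198467, chr9:35681992-35691020, minus strand), the beta-tropomyosin gene, was near the lower limit of the counts. It had 31, 29 and 66 counts in control and 55, 14 and 30 counts in CYT, which overlapped. The log2 fold change was -0.17 with a standard error of 0.61 and an adjusted p of 0.863, and the standard error went with the spread of 14 to 66 counts between libraries.

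MYL9 (ENSG00000101335, chr20:36541484-36551447, plus strand), the regulatory light chain of smooth muscle and non-muscle myosin II, had 2444, 1001 and 1758 counts in control and 1099, 548 and 1296 counts in CYT. In each group replicate 2 was the lowest, and the groups overlapped. In CPM each CYT library lay below the control of the same number. A fit with replicate number as a block gave a standard error of 0.25 and an adjusted p of 0.101 (edgeR). The means were 110 ± 51 CPM and 73.2 ± 32.2 CPM, and the log2 fold change was -0.59 with a standard error of 0.46 and an adjusted p of 0.365 (edgeR).

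**Figure D2:**
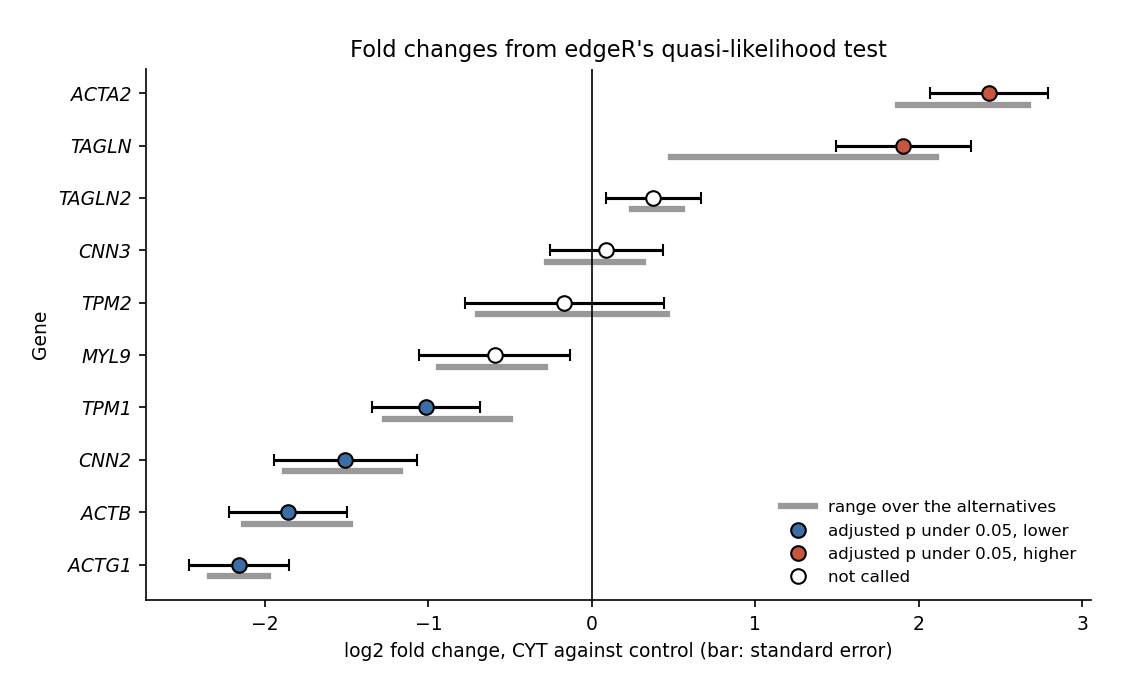
Log2 fold change of CYT against control for the 10 genes from edgeR's quasi-likelihood test, with the standard error as a black bar, filled points for called genes and open points for the others. The grey bar gives the range over the alternative analyses, which crosses 0 for CNN3 and TPM2 but not for the other 8 genes.

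Levels of different genes were compared as CPM per kilobase of merged exons. The deposited FPKM could not serve for this, because the gene length it implies was the sum of all annotated exons, with overlapping exons of different transcripts counted repeatedly, in 92.1% of 10158 well-counted genes. ACTG1 and ACTB were among the exceptions, but their implied lengths were also well over the merged exons. For ACTG1 the implied length was 14148 bases against 2993 merged exonic bases, and for ACTB 8835 against 3519. On the FPKM scale ACTG1 at 276 ± 57 in control therefore appeared lower than ACTB at 530.4 ± 203.7 and TAGLN2 at 416 ± 49. Per kilobase of merged exons, ACTB was at 1359 ± 591 CPM and ACTG1 at 1321 ± 320 CPM in control, which did not differ beyond their spread. Fold changes of one gene are not affected by this length.

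By CPM per kilobase, the order in control was ACTB and ACTG1, then TAGLN2 (525.3 ± 95.3), CNN3 (85.4 ± 19.0), MYL9 (39.1 ± 18.1) and CNN2 (29.8 ± 15.4). TPM1 (3.05 ± 0.97), ACTA2 (2.05 ± 0.26), TPM2 (0.84 ± 0.54) and TAGLN (0.39 ± 0.021) followed. Of neighbours in this order, ACTB and ACTG1, MYL9 and CNN2, and TPM1 and ACTA2 overlapped between libraries. After CYT the order was TAGLN2 (681.5 ± 161.3), ACTB (374.9 ± 84.6), ACTG1 (295.9 ± 61.7), CNN3 (90.7 ± 35.1), MYL9 (25.9 ± 11.4), ACTA2 (11.1 ± 3.6) and CNN2 (10.5 ± 2.2). TPM1 (1.51 ± 0.14), TAGLN (1.47 ± 0.49) and TPM2 (0.75 ± 0.44) were the lowest. Libraries then overlapped between ACTB and ACTG1, between ACTA2 and each of its neighbours MYL9 and CNN2, and between TAGLN and each of its neighbours TPM1 and TPM2. Among 15550 genes ranked by this level, ACTB went from position 42 to 159, ACTG1 from 44 to 190 and TAGLN2 from 112 to 94. ACTA2 went from position 9643 to 4018 and TAGLN from 13518 to 10982.

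Ratios of counts of 2 genes in the same library do not depend on library size or on TMM. The ratio of ACTA2 to ACTB was 0.000921, 0.00123 and 0.00219 in control and 0.0323, 0.0202 and 0.0222 in CYT, an 18.02-fold difference of the geometric means with no overlap. The ratio of TAGLN to TAGLN2 was 0.00100, 0.00149 and 0.00111 in control and 0.00308, 0.00318 and 0.00382 in CYT, again with no overlap and 2.83-fold higher. For both, the exact two-sided permutation test gave p = 0.1, the smallest p that 3 libraries against 3 allow, and 0.3 when adjusted over the 6 ratios compared. Within both pairs the gene typical of smooth muscle was thus higher relative to its non-muscle paralogue in every CYT library.

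The other 4 ratios overlapped between the groups. In each of the 3 same-numbered pairs of libraries, ACTG1 to ACTB and MYL9 to MYL12B were lower after CYT, and CNN3 to CNN2 was higher. For these the exact two-sided sign-flip test gave p = 0.25, the smallest that 3 pairs allow, and it gave p = 0.5 for TPM2 to TPM1. ACTG1 to ACTB was 0.702, 0.899 and 1.02 in control and 0.647, 0.705 and 0.669 in CYT (exact permutation p = 0.2), a 1.28-fold difference of the geometric means. CNN3 to CNN2 was 1.15, 5.81 and 2.23 in control and 5.39, 12.7 and 4.04 in CYT (p = 0.3, exact permutation). MYL9 to MYL12B was 0.254, 0.094 and 0.164 in control and 0.0885, 0.026 and 0.104 in CYT (p = 0.2, exact permutation). Its geometric mean was thus 2.54-fold lower after CYT, the other direction from ACTA2 to ACTB and TAGLN to TAGLN2. TPM2 to TPM1 ranged from 0.046 to 0.182 and had p = 0.3 in the same exact permutation test.

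**Figure D3:**
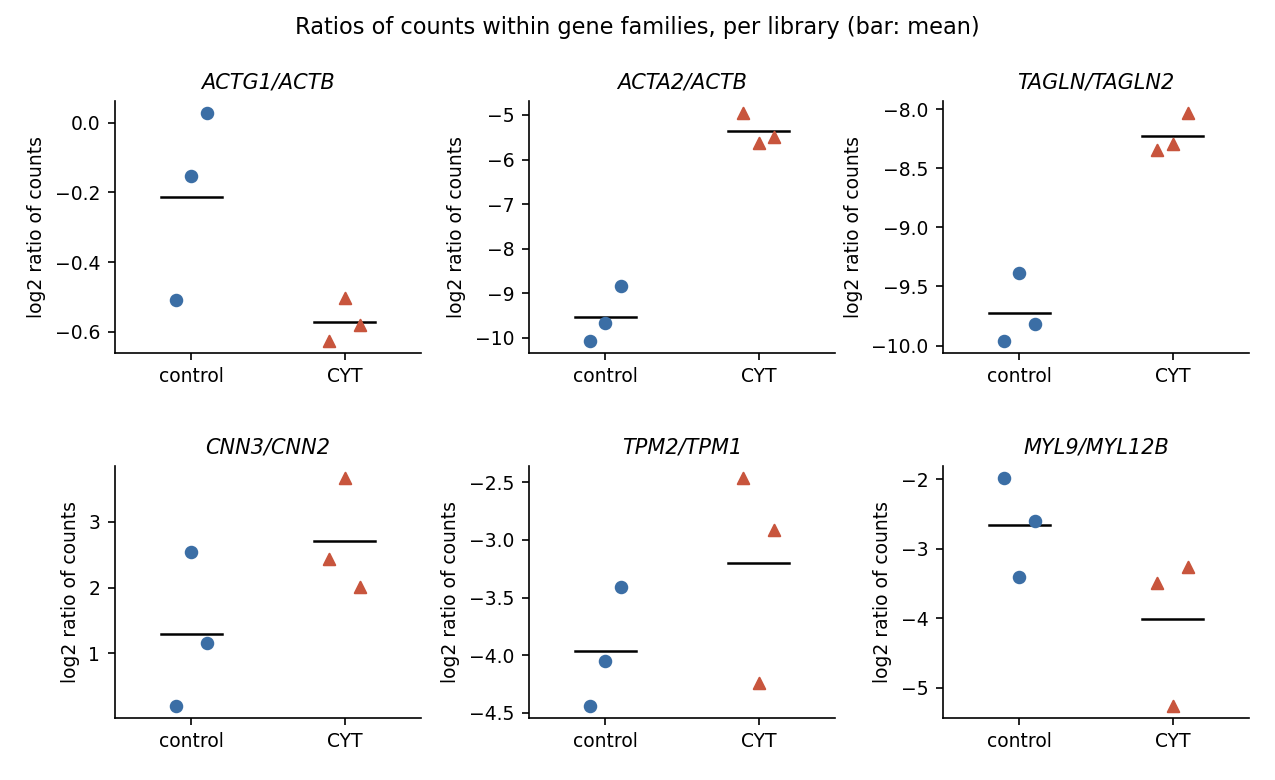
Log2 ratio of the counts of 2 genes of a family in each library, with circles for control, triangles for CYT and bars for group means (n = 3). ACTA2 over ACTB and TAGLN over TAGLN2 are separated between the groups, and the other 4 ratios overlap.

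The factor SRF itself showed no call, whereas its MRTF cofactors were lower. SRF was at 146 CPM in control and 160 CPM in CYT, a log2 fold change of 0.13 with a standard error of 0.37 and an adjusted p of 0.824. MRTFA was at 37.3, 23.1 and 33.1 CPM in control and 12.7, 3.84 and 10.8 CPM in CYT, with no overlap. Its log2 fold change was -1.77 with a standard error of 0.45 and an adjusted p of 0.0172 in edgeR, and the call was lost without control replicate 1 or control replicate 3 (adjusted p from 0.0527 to 0.0580). MRTFB was at 13.1, 16.9 and 2.66 CPM in control and 2.05, 3.77 and 2.54 CPM in CYT, where control replicate 3 lay within the CYT range. Its call, at a log2 fold change of -1.96 and an adjusted p of 0.0388, was lost without control replicate 1, control replicate 2, CYT replicate 1 or CYT replicate 3 (0.1003 to 0.113), and in 4 other settings (upper-quartile factors, a filter at a mean of 5 CPM and both limma fits, 0.0508 to 0.113). ELK1, a cofactor of SRF of the ternary complex type, had a log2 fold change of -1.29 and an adjusted p of 0.0343, lost without control replicate 1, control replicate 3, CYT replicate 1 or CYT replicate 3 (0.0538 to 0.104) and, narrowly, with upper-quartile factors or a filter at a mean of 5 CPM (0.0504 and 0.0508). MYOCD, the cofactor of smooth muscle, had 4 counts in CYT replicate 3 and 0 in the other 5 libraries. In all, 3 of 7 tested genes of SRF and its cofactors (42.9%, beside 12.9% of all genes) were called lower and 0 higher by edgeR, with a median log2 fold change of -0.61. At an unadjusted p under 0.05, and by DESeq2 and limma, the higher count was also 0. None of the 3 lower calls was kept without control replicate 1, where 7.41% of all genes were called lower.

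Promoter windows of 300 bases, from 250 before to 50 after a transcript start, were searched for the CArG box, which is CC, a run of 6 A or T bases, and GG, and reads as the same pattern on both strands. RefSeq windows on GRCh38.p14 were at hand for 7 of the 10 genes. The windows of ACTB, TAGLN and MYL9 were not searched. A box was found in 2 of the 7, ACTG1 and CNN2, beside 1.29% of all 35116 windows and 1.65% of 10513 tested genes with a window. ACTG1 and CNN2 were called lower, beside 12.9% of all genes tested. No box was found in the windows of the other 5 genes, which were ACTA2 (called higher), TPM1 (called lower), and TAGLN2, CNN3 and TPM2 (not called). Only the exact pattern was searched, so elements that depart from it by a base or lie outside the windows would be missed. The 30 bases around each box are shown 5′ to 3′ on the strand of the gene, with the box in capitals, because the box is the pattern that SRF is known to bind. They lie at chr17:81512874-81512903 (minus strand), with the box starting 94 bases before the start, and at chr19:1026509-1026538 (plus strand), with the box starting 89 bases before it.
ACTG1: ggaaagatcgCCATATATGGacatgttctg
CNN2: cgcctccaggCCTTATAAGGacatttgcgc

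The match of letters is a description, and binding of SRF was not measured. Among the other pathway genes listed below, 15 of 104 with a window held a box. Those called lower were FHL2, TGFB1I1 and TPM4, beside 12.9% of all genes tested, and the others are named below. The boxes of FHL2, TGFB1I1 and TPM4 are shown for comparison with the pair above, at chr2:105438595-105438624 and chr2:105399091-105399120 (minus strand), chr16:31473144-31473173 (plus strand) and chr19:16067355-16067384 (plus strand). The upstream box of FHL2 lies in the windows of 2 starts.
FHL2, upstream box: aatctggagaCCTTAAAAGGcacgtgggag
FHL2, downstream box: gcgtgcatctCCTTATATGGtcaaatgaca
TGFB1I1: tggaggggagCCAAATTTGGcttgggtgaa
TPM4: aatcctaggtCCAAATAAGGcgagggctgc

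Boxes were also found in ACTG2, ACTN1, FHL1, FLNA, MYLK, RND3, ROCK2, SMTN, SRF and TES, which were not called, and in ACTA1 and ACTC1, which had too few counts for the test.

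Of the 11 paralogues of the 10 genes, 7 were tested, of which 1 was called lower and 1 higher (14.3% each, beside 12.9% and 15.7% of all genes). TPM4, a tropomyosin of non-muscle cells, was at 680, 222 and 749 CPM in control and 126, 203 and 262 CPM in CYT, so control replicate 2 lay within the CYT range. Its log2 fold change was -1.48 with an adjusted p of 0.0402 in edgeR, lost without control replicate 1, control replicate 3, CYT replicate 1 or CYT replicate 3 (0.0572 to 0.134) and with upper-quartile factors, a filter at a mean of 5 CPM or limma (0.0539 to 0.0606). TPM3 was at 544 CPM and 269 CPM, with an adjusted p of 0.149. MYL6, the essential light chain of non-muscle myosin II, rose from 356 to 661 CPM (log2 fold change 0.89, adjusted p 0.0373), a call that was lost without any control replicate, CYT replicate 1 or CYT replicate 3 (0.0754 to 0.118), and with no filter (0.0928). Without CYT replicate 2 the paralogues called higher numbered 2, beside 18.6% of all genes in that fit. They numbered 3 with upper-quartile factors, 2 with DESeq2 or no filter, and 0 without CYT replicate 1 or CYT replicate 3.

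The other light chains were not called. MYL12A was at 403.5 CPM in control and 665 CPM in CYT (adjusted p 0.0922), MYL12B at 645 and 1121 CPM (0.0756), and MYL6B at 32.0 and 21.1 CPM (0.285, all edgeR). The remaining muscle actins were scarce. ACTA1, of skeletal muscle, had 0 counts in each control and 4, 23 and 6 in CYT. ACTC1, of cardiac muscle, had 0, 1 and 0 counts in control and 20, 4 and 17 in CYT. ACTG2, of enteric smooth muscle, had 27, 4 and 2 counts in control and 18, 9 and 18 in CYT and was not called (adjusted p 0.562). TAGLN3 and CNN1 had at most 6 counts in any library and were not tested.

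Of the 18 other SRF and MRTF target genes, 17 were tested, 5 were called lower (29.4%, beside 12.9% of all genes) and 1 higher (5.88%, beside 15.7%), and the median log2 fold change was -0.70. TGFB1I1, the focal adhesion adaptor Hic-5, was at 90.9, 63.2 and 64.4 CPM in control and 15.7, 3.92 and 9.06 CPM in CYT, a 7.62-fold fall (log2 fold change -2.93, standard error 0.49, adjusted p 0.00264). FHL2, a LIM-only cofactor, went from 115 to 34.2 CPM (log2 fold change -1.75, adjusted p 0.00378, edgeR). MYH9, the main heavy chain of non-muscle myosin II, went from 1197 to 346 CPM (log2 fold change -1.79, adjusted p 0.00663). These 3 were called lower in all 15 alternatives. MICAL2 and PDLIM7 were the other 2 called lower, and they are named because they complete the count, after their values were seen. The lower calls of this list numbered 3 without control replicate 1 or CYT replicate 3, beside 7.41% and 7.63% of all genes in those fits. They numbered 4 or 5 without any other library. ITGA5, the fibronectin receptor subunit, rose from 130 to 299 CPM (log2 fold change 1.198, adjusted p 0.0428), with overlapping groups, and lost its call without control replicate 2, control replicate 3, CYT replicate 1 or CYT replicate 3 (0.109 to 0.152).

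Of 18 tested genes of myosin II and its regulators, 3 were called lower (16.7%, beside 12.9% of all genes) and 1 higher (5.56%, beside 15.7%), with a median of -0.36. The lower calls numbered 1 without control replicate 1 or CYT replicate 3, beside 7.41% and 7.63% of all genes in those fits. Beside MYH9, citron kinase, CIT, fell from 52.8 to 22.3 CPM (log2 fold change -1.24, adjusted p 0.0132), a call lost without control replicate 1 or CYT replicate 3 (0.0550 to 0.0572). PPP1R12A, the targeting subunit of myosin phosphatase, fell from 29.9 to 11.3 CPM (adjusted p 0.0423), lost without control replicate 1, control replicate 2, CYT replicate 1 or CYT replicate 3 (0.0972 to 0.134) and in 5 other settings (0.0538 to 0.112). Control replicate 3, at 12.9 CPM, lay within the CYT range of 9.61 to 13.7 CPM. The heavy chain MYH10 rose from 22.4 to 46.4 CPM (log2 fold change 1.05, adjusted p 0.0421), lost without any control replicate, CYT replicate 1 or CYT replicate 3 (0.0589 to 0.139, edgeR), and with no filter or limma (0.0571 to 0.0677).

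Of 23 genes of actin monomer and filament turnover, all tested, 2 were called lower (8.7%, under the 12.9% of all genes) and 0 higher by edgeR, with a median of -0.21. The lower calls numbered 4 without CYT replicate 2, beside 17.0% of all genes in that fit. They numbered 1 without control replicate 1, beside 7.41%, and also 1 without control replicate 3. Higher genes numbered 0 as well at an unadjusted p under 0.05, and with DESeq2 or limma. The cofilin phosphatase SSH1 went from 78.3 to 25.0 CPM (log2 fold change -1.64, adjusted p 0.00827) and was called in all 15 alternatives. TWF2, a twinfilin that binds monomers, went from 268 to 93.3 CPM (adjusted p 0.0186), lost without control replicate 1 or control replicate 3 (0.0557 to 0.0669).

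Of 23 genes of actin nucleation, 3 formins were called lower and 1 subunit of the ARP2/3 group was called higher. The 3 lower calls were near the share of 12.9% among all genes. They numbered 5 without CYT replicate 2, beside 17.0%, and 3 without control replicate 1, beside 7.41%. Without CYT replicate 1 they numbered 2, as they did without CYT replicate 3, beside 7.63%. The higher call was 4.35% of the list, beside 15.7%. DIAPH2 went from 10.6 to 2.08 CPM (log2 fold change -2.35, adjusted p 0.00238) and FMNL1 from 122.7 to 36.7 CPM (log2 fold change -1.74, adjusted p 0.0119), both called in all 15 alternatives. DIAPH3 went from 28.8 to 11.1 CPM (adjusted p 0.0165), lost without CYT replicate 1 or CYT replicate 3 (0.0631 to 0.0648). ARPC5L rose from 109.5 to 242.5 CPM (log2 fold change 1.15, adjusted p 0.0108), lost without control replicate 3 (0.0601). The median of the list was -0.25.

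Of 22 genes of actin crosslinking and adhesion, 5 were called lower (22.7%, beside 12.9% of all genes) and 1 higher (4.55%, beside 15.7%), with a median of -0.56. Without control replicate 1 only 1 gene of this list was called lower, beside 7.41% of all genes, so the count showed no excess in that fit. Without each other library the lower calls numbered 4 to 7. PDLIM1, a LIM domain protein of stress fibres, and FLNC, a filamin that links filaments into networks, fell with adjusted p of 0.0124 and 0.0143 (edgeR), and both were lost without control replicate 1 (0.0507 and 0.0565). Over the libraries left out, the log2 fold change ran from -1.67 to -1.26 for PDLIM1 and from -2.10 to -1.43 for FLNC. PXN and PDLIM7 were also called lower and are named after their values were seen. FSCN1, the bundling protein fascin, rose from 3.69 to 15.02 CPM (log2 fold change 2.03, adjusted p 0.0273), with CYT replicate 2 within the control range, and was lost without any control replicate, CYT replicate 1 or CYT replicate 3 (0.0563 to 0.0851) and with limma on either FPKM scale (0.0538 and 0.0586).

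Counting each of the 113 pathway genes once, since 12 are in more than 1 list, 20 of 105 tested (19.0%) were called lower, beside 12.9% of all genes, and 5 (4.76%) higher, beside 15.7%. Of the 105, 71 had a negative log2 fold change, and their median was -0.37. With replicate number as a block, 31 were called lower and 7 higher, beside 19.8% and 20.0% of all genes in that fit. The lower calls then numbered 8 among the other SRF and MRTF targets, 6 in the list of myosin II and its regulators, 7 in nucleation and 8 in crosslinking and adhesion, and 3 nucleation genes were higher. Without control replicate 1 the count of lower calls was 8, beside 7.41% of all genes, and without CYT replicate 3 it was 12, beside 7.63%. Without CYT replicate 2 the lower calls numbered 27, beside 17.0%, and the higher calls 6, beside 18.6%. The higher calls numbered 3 without control replicate 1, 2 without control replicate 2, and 1 without control replicate 3, CYT replicate 1 or CYT replicate 3.

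**Figure D4:**
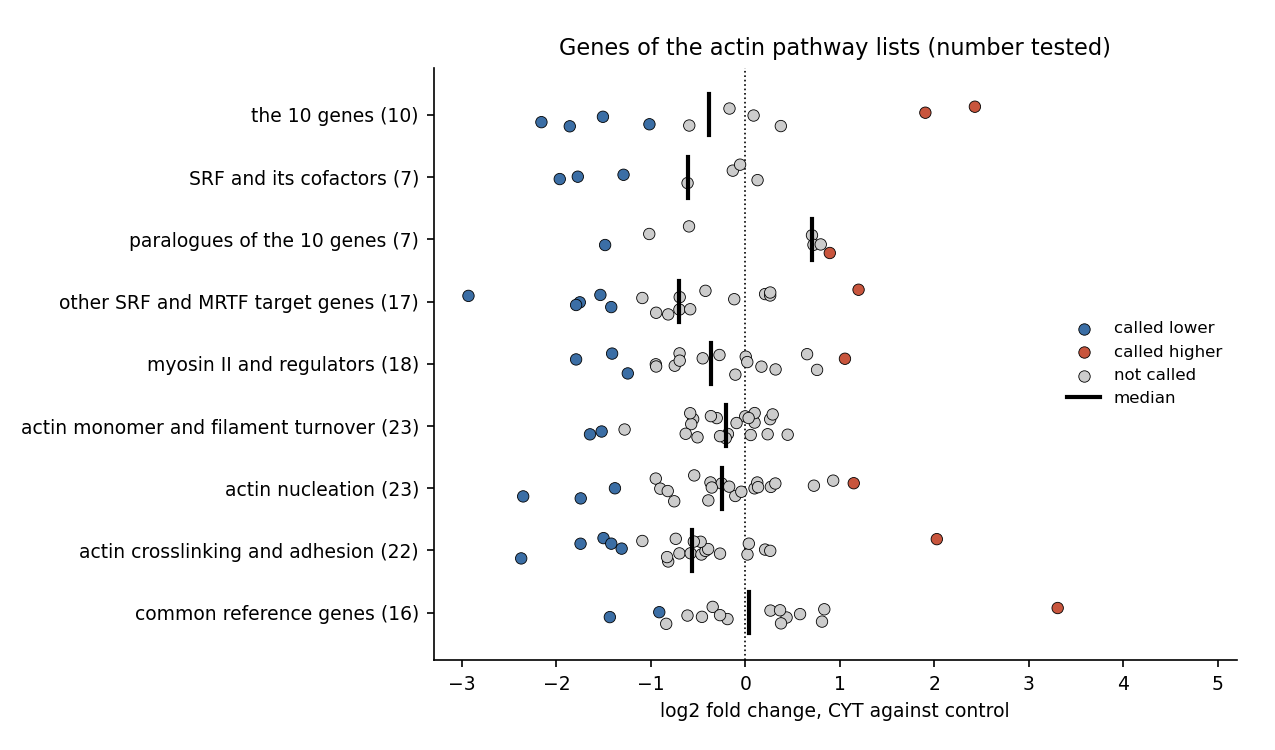
Log2 fold change of CYT against control for each tested gene of the actin pathway lists and of a list of common reference genes, with the number tested in brackets, called genes in blue (lower) and red (higher) and the list median as a bar. The medians of 6 of the 7 pathway lists lie below 0, and the list of paralogues has its median above 0.

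ACTB is often used as a reference gene for expression, and 16 genes used in that way were read in the same fit. Of them 2 were called lower (12.5%, near the background) and 1 higher (6.25%), with a median log2 fold change of 0.038. IPO8 was lower at -1.43 (0.0112, lost without CYT replicate 3 at 0.0509), and POLR2A, the largest subunit of RNA polymerase II, was 9.88-fold higher (edgeR adjusted p 0.000909, called in all 15 alternatives). GAPDH, named after its values were seen because it served as the internal control of the study's PCR, was at 9176 CPM in control and 6675 CPM in CYT, a log2 fold change of -0.46 with a standard error of 0.34 and an adjusted p of 0.346.

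Among 11409 genes with a mean of at least 5 CPM, the profiles of log2 CPM over the 6 libraries most like that of ACTB were those of PGS1 (Pearson r = 0.997), STAT5B (0.996) and TBC1D2B (0.995). Those most like TAGLN were CYGB (0.998), AKR1B1 (0.998) and LINC01145 (0.996). With 6 libraries in 2 groups such values are common, and 253 genes (2.22%) had r over 0.95 with ACTB and 308 (2.70%) with TAGLN. They are given as a description with no test, and the libraries share their depth and treatment across all genes.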

How the data were processed

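RNA was taken from 3 control and 3 CYT-treated samples of MDA-MB-231-DR cells, grouped and numbered by the sample labels. According to the methods, mRNA was separated from total RNA and sequenced on an Illumina NovaSeq instrument, low-quality, adapter and ribosomal reads were removed, and clean reads were aligned with Hisat2. The submitters' processing notes name FastQC 0.12.1 and the build hg38. The authors deposited a raw read count per gene and library, and the program, annotation and strand setting of the counting are not given in the sources used here. The authors also deposited FPKM values, made with Stringtie per the methods, which equal the count scaled by the library's total and by 1 length per gene. That length was the sum of distinct exons, overlaps included, in 92.1% of 10158 genes, so levels of different genes were compared as CPM per kilobase of merged exons of GENCODE release 29.

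The test of the counts was run in edgeR 4.0.16 under R 4.3.3 (TMM, filterByExpr with a minimum count of 10, quasi-likelihood test over 15572 genes, Benjamini-Hochberg adjustment). The biological coefficient of variation was 37.5%. The standard error of each log2 fold change was derived from its F statistic. The script was tested on simulated data. Total counts of 13056270 to 17770102 per library limit precision most for genes with few counts, such as TAGLN and TPM2. Replicates differed by a chi-square per gene from 25.0 (CYT 1 and CYT 3) to 153 (CYT 1 and CYT 2), so no library was a copy of another.

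The members and gene lists were chosen with earlier results of these data known. The named genes were the 10 genes, SRF, MRTFA, MRTFB, all paralogues, genes that overlap a member, up to 3 genes per list and direction with the smallest adjusted p, and the 3 profiles most like ACTB and TAGLN. Of the genes the rule names, 2 are not reported here. MICAL2, PDLIM7, PXN and GAPDH were named after their values were seen, as were the other genes with a CArG box and the members of marker lists.

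The deviations of control and CYT libraries with the same number from their group means correlated over genes at 0.188, 0.458 and 0.124, each over the limit of 0.1 that was taken as pairing. The pairing rests on the label numbers and this check alone, and control 1 with CYT 3 (0.303) and control 3 with CYT 1 (0.201) correlated more than some same-numbered pairs. The alternatives were upper-quartile factors, library totals, DESeq2 1.42.0, limma 3.58.1 on FPKM with a pseudocount of 1 or 0.1 before log2, no filter on low counts, a filter at a mean of 5 CPM, a replicate block, pseudogene counts added to their parents, and leaving out each library.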

Additional observations from a re-analysis of the deposited data

How the results depend on the processing

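ACTB, ACTG1 and ACTA2 kept their direction and call in all 15 alternatives, and TAGLN in the 14 that tested it, whereas TAGLN2 and MYL9 were never called. Of the 10 genes, 3 in place of 4 were called lower with upper-quartile factors, with library totals, with a filter at a mean of 5 CPM and with limma. Over the libraries left out in turn, lower calls ranged from 2 to 4 among the 10 genes, where the 2 lost were CNN2 and TPM1, and higher calls stayed at 2. With a mean of at least 5 CPM the higher calls numbered 1, because TAGLN was not tested there. Among the pathway genes, lower calls ranged from 8 to 27 and higher calls from 1 to 6 over the libraries left out, against 20 and 5 in all libraries. Higher calls were 3 with limma on either FPKM scale, and 6 with DESeq2.

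CNN3, TPM2 and SRF, none of them called, changed sign in some settings, and the cause was not tested. CNN3 had a log2 fold change of -0.00052 with no filter and from -0.27 (without CYT replicate 2) to 0.31 over the libraries left out, including -0.11 without control replicate 1. TPM2 ranged from -0.70 to 0.46 over the libraries left out, with 0.46 without control replicate 3 and 0.20 without CYT replicate 2. SRF ranged from -0.075 without CYT replicate 3 to 0.44, with -0.014 without control replicate 2 and -0.0077 without CYT replicate 1.

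With replicate number as a block, which takes same-numbered libraries as pairs, 31 pathway genes were lower and 7 higher, and the call of each of the 10 genes was as without it, as was that of each pathway and reference gene taken from the lists by the rule (TPM1 at an adjusted p of 0.0225, edgeR). No ratio within a family changed sign in 48 alternative values, and the block's sign-flip test on 3 pairs cannot go below 0.25. MYL12A and MYL12B, not called with TMM, were called higher with upper-quartile factors (0.0478 and 0.0411), and MYL12B also with DESeq2 (0.0430). Over the 10 genes and those pathway and reference genes, 512 of 612 alternative values kept their direction and side of the threshold, 89 lost a call, 3 gained one and 8 changed sign. Upper-quartile factors moved the median over all genes to 0.16 (log2) and the lack of a filter moved it to 0.41. The genes that overlap a member and those most like ACTB and TAGLN were not run under the alternatives.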
